A study of Homo sapiens with 12 samples.

Results

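The genes described here are the sialyltransferases and the enzymes and carriers of sialic acid metabolism, 33 genes taken by name from the 60656 gene IDs of the count table. All 33 were found in the table, and 29 of them passed the filter on low counts and were tested. RNA was sequenced from 3 human cell lines of metastatic melanoma (A2058, A375, SKMEL-5), each cultured at 1% oxygen (hypoxia) and under atmospheric oxygen (normoxia). Each line and condition had 2 libraries, which makes 12 libraries in 6 groups. No transgene, drug or further treatment is named in the labels, and the length of the hypoxic culture is not given in the sources used here. Nothing in the labels says whether the 2 libraries of a group came from separate cultures, so p-values measure the spread between these libraries, which may be technical.

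Sialic acid is an acidic sugar that caps the glycans of cell-surface proteins and lipids. It is made in the cytosol by GNE, NANS and NANP, activated to its CMP form in the nucleus by CMAS, and carried into the Golgi by SLC35A1. There the sialyltransferases attach it: the ST3GAL enzymes in alpha2,3 linkage, the ST6GAL enzymes in alpha2,6 linkage to galactose, the ST6GALNAC enzymes in alpha2,6 linkage to N-acetylgalactosamine, and the ST8SIA enzymes in alpha2,8 linkage to another sialic acid. Sialidases of the NEU family remove it, CASD1 and SIAE add and remove O-acetyl groups on it, SLC17A5 (sialin) carries free sialic acid out of the lysosome, and NPL cleaves it in the cytosol. Melanomas are known for gangliosides with alpha2,8-linked sialic acid, such as GD3, whose synthase is ST8SIA1.

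Library totals ran from 33831569 to 54202819 counts. A count of 0 allows a level of up to 0.0506 to 0.0901 CPM per library on the TMM scale used throughout (counts scaled to a fixed library total with edgeR's TMM factors), which covers counting error only. The main axis of variation within lines took 47.1% of the variance and set apart 3 hypoxic libraries, A2058 replicate 2, A375 replicate 1 and SKMEL-5 replicate 1, from the other 9. Libraries labelled A375 and SKMEL-5 were nearly alike, with a correlation of log2 CPM of 0.976 to 0.990 between each and its most similar library of the other line, against 0.843 to 0.880 for A2058. Between A375 and SKMEL-5, 2 of 19636 genes passed the test. The melanocyte markers MLANA and TYR were at 0 counts in all libraries of A375 and SKMEL-5 and were present in A2058, where the 8 melanocyte markers summed to between 2583 and 8006 CPM in hypoxic libraries and to between 2643 and 2645 CPM in normoxic libraries. In A375 and SKMEL-5 the same sums ran from 867 to 1078 CPM in hypoxia and from 1035 to 1569 CPM in normoxia. The line names below are the labels'. Markers of keratinocytes, blood and endothelium are given with the companion lists. The hypoxia markers rose in the hypoxic libraries: CA9, a carbonic anhydrase, had 352 to 725 CPM in hypoxia and 0.0826 to 19.0 CPM in normoxia, and VEGFA, a vessel growth factor, had 149 to 828 CPM in hypoxia and 50.5 to 117 CPM in normoxia. In bulk RNA, fewer cells of a type and less RNA per cell cannot be told apart.

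The gene that passed the test for hypoxia was SLC17A5, the lysosomal exporter of sialic acid. The next in order was ST8SIA1, the GD3 synthase, which was lower in hypoxia but did not pass. Their upstream sequences are shown because no other gene of the 33 had hypoxic libraries all on one side of the normoxic libraries in each line. Both are the 250 bases before the RefSeq start of the gene in the GRCh38.p14 build, minus strand, with the hypoxia response core, ACGTG or GCGTG on either strand, in capitals. The SLC17A5 window is chr6:73653993-73654242 and holds 1 core, 20 bases before the start, while the ST8SIA1 window, chr12:22334708-22334957, holds 0.
SLC17A5: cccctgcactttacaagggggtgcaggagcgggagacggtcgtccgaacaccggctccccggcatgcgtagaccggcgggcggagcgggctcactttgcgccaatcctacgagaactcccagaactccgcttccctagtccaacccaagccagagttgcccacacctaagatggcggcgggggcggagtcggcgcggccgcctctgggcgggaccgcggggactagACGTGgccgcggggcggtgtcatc
ST8SIA1: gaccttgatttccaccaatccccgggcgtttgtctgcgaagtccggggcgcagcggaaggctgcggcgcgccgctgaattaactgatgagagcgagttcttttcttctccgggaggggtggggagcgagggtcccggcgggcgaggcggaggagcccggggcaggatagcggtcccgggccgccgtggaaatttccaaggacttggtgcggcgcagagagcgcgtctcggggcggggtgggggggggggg
A window was found for 26 of the 33 genes, and 19 of these hold at least 1 core. Among 35116 windows of the same length in RefSeq, 43.2% hold one. A match is a description of letters and says nothing of binding.

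**Figure D1:**
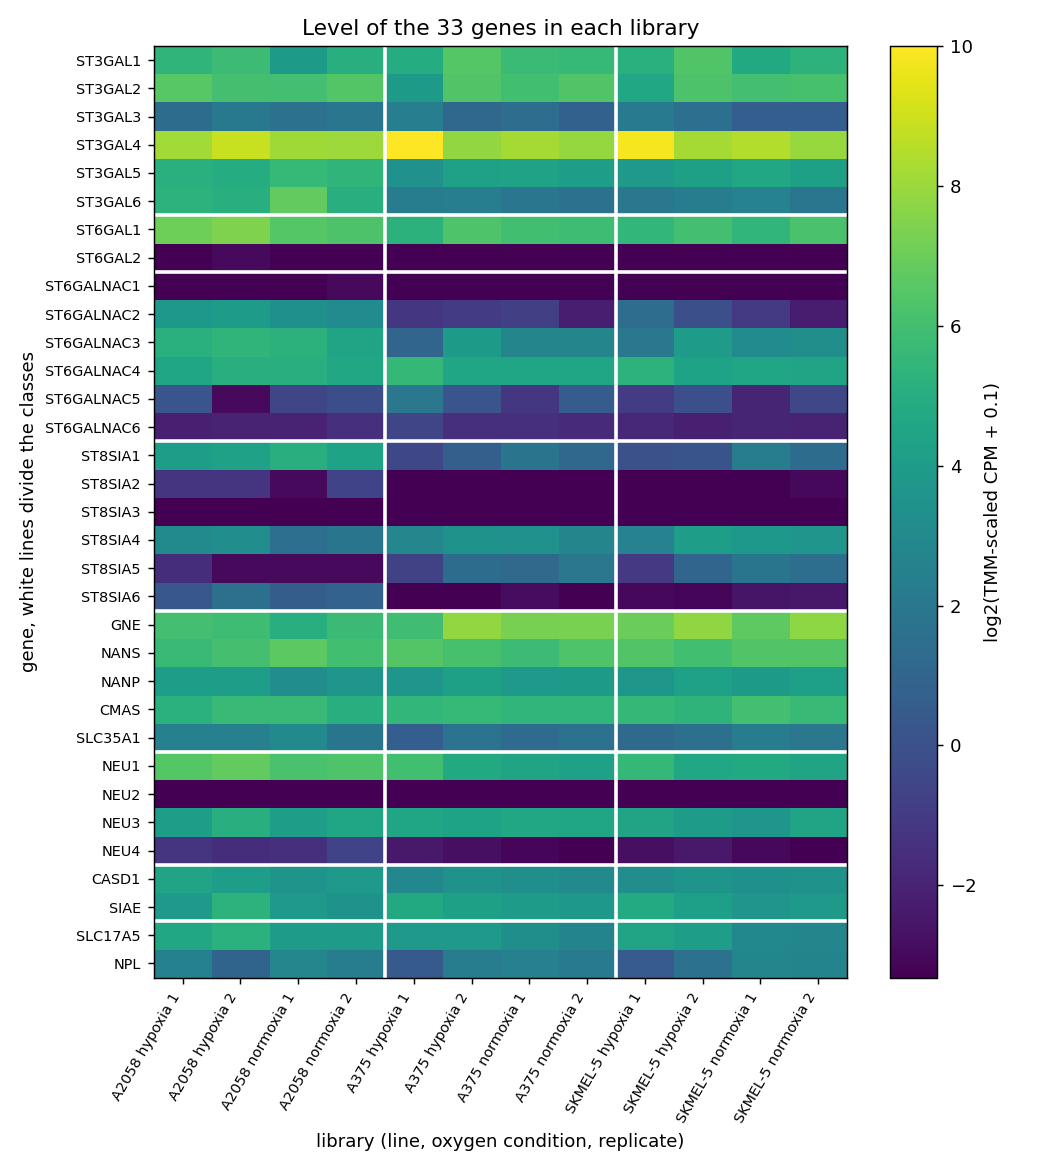
Level of each of the 33 genes (rows, grouped by class) in each of the 12 libraries (columns), as log2(TMM-scaled CPM + 0.1). ST3GAL4 is the brightest row, with 228 to 1027 CPM, and the A2058 columns differ from the others at ST6GALNAC2, ST8SIA1, ST8SIA6 and ST3GAL6.

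Between genes, levels were compared as TMM-scaled CPM per kilobase of union exon length. ST3GAL4, which sialylates N- and O-glycans in alpha2,3 linkage, was highest at 90.7 ± 60.2 per kilobase (SD over 12 libraries). Behind it came CMAS at 22.98 ± 4.05, GNE at 20.9 ± 12.2 and NANS at 15.1 ± 2.98, 3 steps of the supply chain. CMAS lay above NANS in 12 of 12 libraries but above GNE in 7, and GNE lay above NANS in 8, so the place of GNE among them is within its spread. The gap between CMAS and NANS depends on the length used: per kilobase of longest transcript they averaged 25.9 and 24.5, and CMAS was higher in 7 of 12 libraries. ST6GALNAC4 (10.7 ± 3.05), NEU1 (10.5 ± 6.53) and ST6GAL1 (8.55 ± 4.31) followed and overlapped one another. At the low end, ST8SIA3 and NEU2 had no count, while ST6GAL2 and ST6GALNAC1 were detected in 1 library each, under the level that a count of 0 allows, and these 4 were the genes not tested. ST8SIA2, NEU4 and ST6GALNAC6 were tested on low levels, between 0 and 0.601 CPM in every library. By longest transcript instead of union exon, ST3GAL4, CMAS and the untested genes kept their ranks in the order.

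Hypoxia was set against normoxia to ask which of these genes answer to low oxygen. In the mean of the 3 lines' differences, hypoxia minus normoxia, 1 of 29 tested genes was called at an adjusted p under 0.05 (edgeR's quasi-likelihood test with Benjamini-Hochberg adjustment), against 1.12% of all 19636 genes tested. In that comparison 0.978% of all genes were called higher and 0.143% lower. A further 6 of the 29 reached an unadjusted p under 0.05 without passing the adjustment, 7 in all, which is 24.1% against 19.0% of all genes. DESeq2 called 3 of the 29, against 7.86% of all genes. Of the 29, 18 had a positive estimate and 11 a negative one, and the median log2 difference was 0.19, against 0.02 over all genes tested. Within single lines 0 of the 29 were called, while an unadjusted p under 0.05 was reached by 2 in A2058 (9.16% of all genes) and by 2 in A375 (5.6%). In SKMEL-5 it was reached by 4 (6.53%). By adjusted p, 0.0102% of all genes were called in A2058, 0.0% in A375 and, likewise, 0.0% in SKMEL-5. DESeq2 called 3 in SKMEL-5 (SLC17A5, ST6GALNAC2 and ST8SIA1), where it called 0.611% of all genes. It called 0 in A2058 (1.89% of all genes) and 0 in A375 (0.606%). Counted by libraries that do not overlap, 11 of the 29 were higher in hypoxic A2058 (20.5% of all genes) and 3 lower (18.6%). In hypoxic A375 6 were higher (18.1%) and 1 lower (14.2%), and in hypoxic SKMEL-5 5 were higher (18.5%) and 6 lower (19.7%). Few counts underlie some of these, such as ST8SIA5 in A2058, with 11 and 1 counts in hypoxia against 1 and 1 in normoxia. Others are ST6GALNAC6 in A2058 (6 and 5 against 6 and 9) and NEU4 in A375 (3 and 2 against 1 and 0).

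SLC17A5 had 25.04 and 36.0 CPM in hypoxic A2058 libraries, against 16.4 and 15.7 CPM in normoxic ones. In A375 it had 14.3 and 14.4 CPM in hypoxia and 9.94 and 6.37 CPM in normoxia. SKMEL-5 gave 21.9 and 16.9 CPM in hypoxia, against 7.34 and 6.90 CPM in normoxia. All 6 hypoxic libraries lay above the 2 normoxic libraries of their own line, a separation that 4.86% of all genes tested show in the same direction. The 3-line mean was a log2 change of 1.06 ± 0.21 (SE), 2.09-fold, with an adjusted p of 0.0463 by edgeR. Per line the log2 change was 0.92 ± 0.37 in A2058 and 0.81 ± 0.37 in A375, with 1.45 ± 0.38 in SKMEL-5. Without the 3 hypoxic libraries that stood apart the 3-line log2 change was 0.88 ± 0.23 and did not pass. That fit, here and below, keeps 1 hypoxic library per line. A call lost there cannot be told apart from the effect of having fewer libraries. Leaving out 1 library at a time kept it between 0.97 and 1.18, with adjusted p-values by edgeR from 0.0319 to 0.199, and the call was lost for all but 2 of the 12 libraries, hypoxic A2058 replicate 1 and hypoxic A375 replicate 2.

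ST8SIA1, with the second smallest p, did not pass. It had 17.7 and 19.9 CPM in hypoxic A2058 libraries and 34.4 and 21.0 CPM in normoxic ones. In A375, hypoxic libraries held 0.631 and 1.52 CPM and normoxic libraries 3.34 and 2.11 CPM, and in SKMEL-5 hypoxic libraries held 0.882 and 0.987 CPM and normoxic libraries 4.97 and 2.51 CPM. All 6 hypoxic libraries lay below those of normoxia in their line, which 2.79% of all genes tested show in that direction. The 3-line log2 difference was -1.30 ± 0.31 with an adjusted p of 0.0740 by edgeR. DESeq2 gave an adjusted p of 0.00151, and edgeR without the filter on low counts gave 0.00790. Without hypoxic A375 replicate 2 the difference was -1.56 and passed in edgeR (adjusted p = 0.0262), and without the 3 libraries that stood apart it was -1.16 (adjusted p = 0.314, edgeR).

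**Figure D2:**
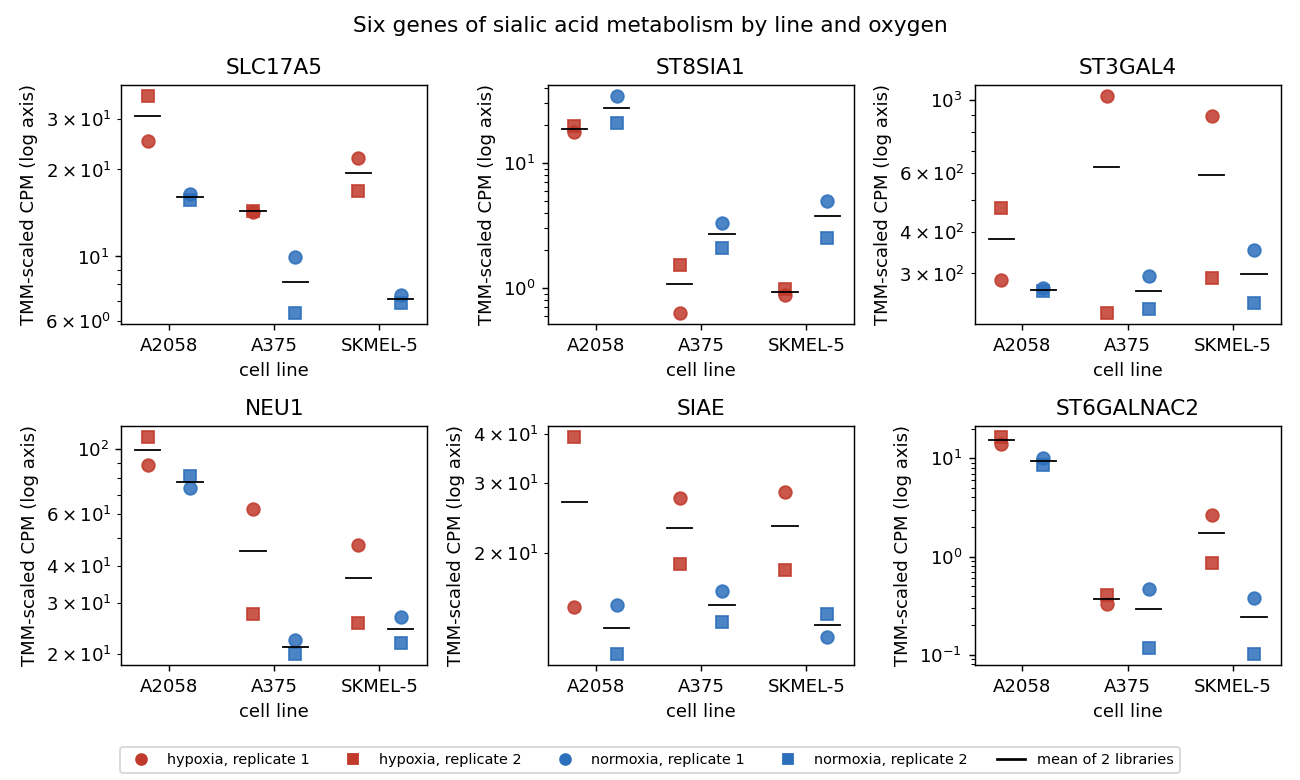
TMM-scaled CPM (log axis) of 6 genes in hypoxic (red) and normoxic (blue) libraries of each line, with replicate 1 as circles, replicate 2 as squares and the mean of 2 libraries as a bar. SLC17A5 is higher in hypoxia and ST8SIA1 lower in each line without overlap, whereas for ST3GAL4 the high values are single hypoxic libraries of A375 (1027 CPM) and SKMEL-5 (892 CPM).

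The other genes that rank next by p stayed short of the threshold, and several of them rest on the 3 libraries that stood apart. SIAE, the O-acetylesterase, had 14.6 and 39.2 CPM in hypoxic A2058 libraries and 14.8 and 11.1 CPM in normoxic ones. In A375 it had 27.5 and 18.8 CPM in hypoxia against 16.1 and 13.4 CPM in normoxia, and in SKMEL-5 28.6 and 18.2 CPM in hypoxia against 12.3 and 14.1 CPM in normoxia. Hypoxic libraries thus lay above normoxic ones in A375 and SKMEL-5 and overlapped in A2058. Its 3-line log2 difference of 0.84 ± 0.28 (adjusted p = 0.152, edgeR) came down to 0.31 without the 3 libraries. SIAE shares exon bases on the opposite strand with TBRG1 and SPA17, so its counts are uncertain unless strand was used in counting.

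NEU1, the lysosomal sialidase, had 88.6 and 110 CPM in hypoxic A2058 libraries and 73.6 and 80.9 CPM in normoxic ones. A375 held 62.7 and 27.4 CPM in hypoxia and 22.3 and 19.96 CPM in normoxia, and SKMEL-5 47.3 and 25.5 CPM in hypoxia and 26.8 and 21.9 CPM in normoxia. The libraries overlapped in SKMEL-5 alone. Its log2 difference was 0.68 ± 0.25 (adjusted p = 0.186, edgeR), and 0.19 without the 3 libraries.

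ST3GAL4 had 288 and 472 CPM in hypoxic A2058 libraries and 272 and 265 CPM in normoxic ones. In A375 it stood at 1027 and 228 CPM in hypoxia and at 295 and 234 CPM in normoxia, and in SKMEL-5 at 892 and 290 CPM in hypoxia and at 353 and 244 CPM in normoxia. The high value in each line is the hypoxic library that stood apart, which was 1.64 times its hypoxic mate in A2058, 4.50 times in A375, and 3.07 times in SKMEL-5. The 3-line log2 difference was 0.91 ± 0.39 (adjusted p = 0.238, edgeR), and -0.08 without those 3 libraries.

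ST6GALNAC2, an O-glycan enzyme, had 13.9 and 16.5 CPM in hypoxic A2058 libraries against 10.1 and 8.61 CPM in normoxic ones. Both other lines were low, at 0.330 and 0.409 CPM in hypoxic A375 and 0.472 and 0.118 CPM in normoxic A375, and at 2.65 and 0.862 CPM in hypoxic SKMEL-5 and 0.381 and 0.101 CPM in normoxic SKMEL-5. Hypoxic libraries lay above normoxic ones in A2058 and SKMEL-5 and overlapped them in A375. Its 3-line log2 difference was 1.28 ± 0.45 (adjusted p = 0.172, edgeR), and 0.92 without the 3 libraries. It shares 1772 bases of exon, summed over 2 neighbours, with AC015802.6 on the same strand and AC015802.1 on the opposite strand. AC015802.6 had 0.751 to 6.54 CPM, so the split of reads between these genes is uncertain.

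NPL, the lyase that breaks sialic acid down, had 5.74 and 1.90 CPM in hypoxic A2058 libraries and 7.10 and 4.93 CPM in normoxic ones. In A375 it had 1.26 and 4.68 CPM in hypoxia and 5.58 and 4.40 CPM in normoxia, and in SKMEL-5 1.31 and 3.16 CPM in hypoxia and 6.81 and 6.27 CPM in normoxia. Libraries of the 2 conditions overlapped in A2058 and A375. Its log2 difference of -0.98 ± 0.42 did not pass (adjusted p = 0.238, edgeR), and it was -0.42 without the 3 libraries. NEU4, a sialidase, had 0.316 and 0.230 CPM in hypoxic A2058 libraries and 0.256 and 0.550 CPM in normoxic ones, and 0 to 0.0901 CPM in the other 8 libraries, so no fold is given for it.

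**Figure D3:**
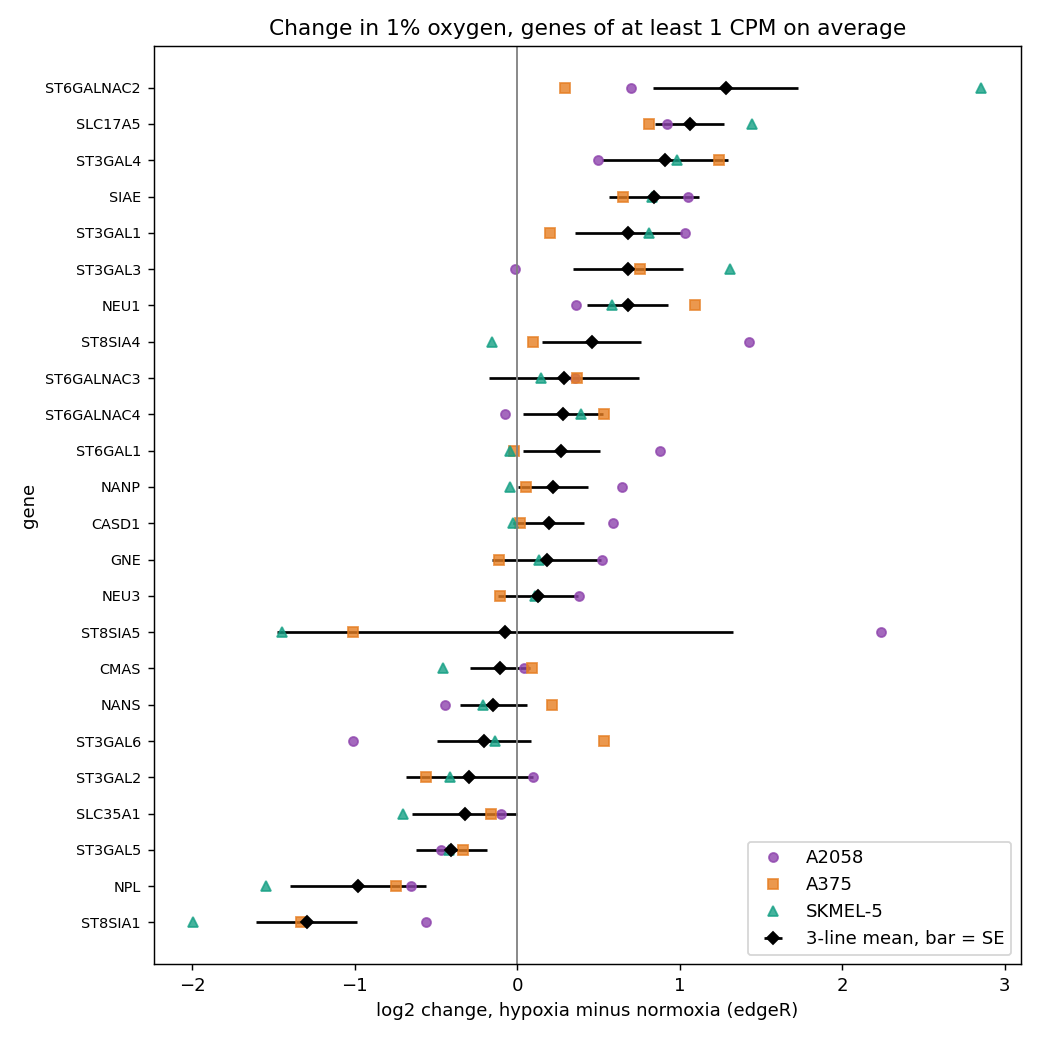
Log2 difference, hypoxia minus normoxia, of the 24 genes with a mean of at least 1 CPM, for each line (coloured symbols) and for the 3-line mean with its standard error (black). Of these, SLC17A5 at 1.06 passed, and ST8SIA1 lies farthest below 0, at -1.30.

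Of the 6 alpha2,3 enzymes 3 had a positive estimate (ST3GAL1, ST3GAL3 and ST3GAL4) and 0 passed. ST3GAL1, an O-glycan enzyme, had a log2 difference of 0.68 ± 0.33, and 0.95 without the 3 libraries that stood apart. ST3GAL5, the GM3 synthase, had -0.41 ± 0.22, and -0.21 without them. All 5 tested ST6GALNAC genes had positive estimates and 4 of 5 tested ST8SIA genes negative ones, where 10019 of all 19636 tested genes were positive. Without the 3 libraries ST6GALNAC4 was -0.20, ST6GALNAC6 -0.29 and ST8SIA5 0.65, so neither direction held across its class. ST6GALNAC2, ST6GALNAC3 and ST6GALNAC5 stayed positive, and ST8SIA1, ST8SIA2 and ST8SIA6 negative. ST8SIA2 had 0 counts in A375 and 1 in SKMEL-5. In edgeR 0 of these 10 passed. Of them, 2 (ST6GALNAC2 and ST8SIA1) had an unadjusted p under 0.05 and passed in DESeq2. None of the 5 supply genes passed, and their log2 differences ran from -0.32 ± 0.32 for SLC35A1 to 0.22 ± 0.22 for NANP. ST6GAL1, which puts alpha2,6 sialic acid on N-glycans, had 136 and 172 CPM in hypoxic A2058 against 90.2 and 77.1 CPM in normoxic A2058. In A375 it had 38.0 and 80.0 CPM in hypoxia and 61.9 and 57.9 CPM in normoxia, and in SKMEL-5 45.6 and 65.1 CPM in hypoxia and 43.3 and 71.1 CPM in normoxia. Hypoxic libraries of ST6GAL1 were thus higher in A2058 and overlapped normoxic ones in both other lines. A test of whether the hypoxia difference was equal in the 3 lines called 0 of the 29, and 0.0% of all genes, with 0 of the 29 at an unadjusted p under 0.05, against 1.6% of all genes. DESeq2 also called 0 of the 29, against 0.0713% of all genes.

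Between lines the differences were larger. A2058 differed from A375 in 14 of the 29 tested genes (12 higher, 2 lower in A2058), against 27.6% of all genes, and from SKMEL-5 in 14 (11 higher, 3 lower), against 26.8% of all genes. Both contrasts use the same A2058 libraries. Between A375 and SKMEL-5, 0 of 29 passed, against 0.0102% of all genes, with 1 at an unadjusted p under 0.05 (1.78% of all genes), and DESeq2 also called 0 (0.168%). In both A2058 contrasts 13 genes were called in the same direction, against 23.4% of all genes. Of these, 11 were higher in A2058, against 11.2% of all genes called higher in both: ST3GAL5, ST3GAL6, ST6GAL1, ST6GALNAC2, ST6GALNAC3, ST8SIA1, ST8SIA2, ST8SIA6, NEU1, NEU4 and SLC17A5. ST8SIA5 and GNE were lower in A2058 in both, against 12.2% of all genes called lower in both. Of 29 genes, 9 had all 4 A2058 libraries above the other 8, against 10.6% of all genes, and ST8SIA5 had all 4 below, against 11.9%. Among the 9 is ST8SIA2, with 1 count each in normoxic A2058 replicate 1 and normoxic SKMEL-5 replicate 2 (0.0256 and 0.0202 CPM). Its separation thus rests on library scaling. With hypoxic libraries alone 4 genes passed in each contrast, ST3GAL6, ST6GALNAC2, ST8SIA1 and ST8SIA6, where 8.95% of all genes passed against A375 and 8.63% against SKMEL-5. Without the 3 hypoxic libraries that stood apart, 10 genes passed against A375 (21.3% of all genes) and 11 against SKMEL-5 (21.8%). The calls of SLC17A5, ST6GAL1 and ST8SIA2 were then lost against both lines, and that of CASD1, which O-acetylates sialic acid, against A375.

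ST8SIA1 averaged 23.2 ± 7.56 CPM in A2058, 1.90 ± 1.14 CPM in A375 and 2.34 ± 1.91 CPM in SKMEL-5 (SD, n = 4 libraries each, both oxygen conditions). The log2 difference was 3.73 ± 0.41 against A375 (adjusted p = 7.75e-05) and 3.61 ± 0.41 against SKMEL-5 (adjusted p = 9.34e-05), by edgeR's fit across all genes. Every A2058 library lay above every library of the other lines.

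ST3GAL6, an alpha2,3 enzyme, had 39.8 and 32.4 CPM in hypoxic A2058 libraries and 111 and 34.1 CPM in normoxic ones, against 3.98 to 5.16 CPM in hypoxic and 3.15 to 5.98 CPM in normoxic libraries of A375 and SKMEL-5. Its log2 difference was 3.64 ± 0.39 against A375 and 3.48 ± 0.39 against SKMEL-5. It shares exon bases with DCBLD2 on the opposite strand, which had 116 to 739 CPM. ST6GALNAC2, with the values above, differed by 5.14 ± 0.62 and 4.19 ± 0.59 on the log2 scale.

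ST8SIA6, which adds sialic acid to O-glycans, had 1.14 and 2.90 CPM in hypoxic A2058 and 1.44 and 1.71 CPM in normoxic A2058, but at most 0.0810 CPM in any other library. Summed over libraries it had 273 counts in A2058, against 2 in A375 and 9 in SKMEL-5, a ratio of 155 (95% exact interval 42.4 to 1285) and of 36.9 (19.1 to 81.5). ST8SIA2, one of the polysialic acid synthases, had 46 counts in A2058 and 0 in A375, which makes it at least 17.4-fold higher against a floor of 3 counts over the group. Against 1 count in SKMEL-5 the ratio was 55.9 (9.55 to 2257). The 4 A2058 libraries held 0.295 and 0.316 CPM of ST8SIA2 in hypoxia and 0.0256 and 0.550 CPM in normoxia, so it is a trace transcript. The intervals cover counting error only.

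ST8SIA5, which extends gangliosides, ran the other way. It had 0.231 and 0.0287 CPM in hypoxic A2058 libraries and 0.0256 and 0.0275 CPM in normoxic ones, where all but hypoxic replicate 1 are levels of 1 count. A375 held 0.511 and 2.48 CPM in hypoxia and 2.31 and 3.74 CPM in normoxia, and SKMEL-5 0.358 and 1.94 CPM in hypoxia and 3.56 and 2.75 CPM in normoxia. The low hypoxic library in A375 and in SKMEL-5 is the one that stood apart. ST8SIA4, the other polysialic acid synthase, had 7.995 and 9.17 CPM in hypoxic A2058, 2.82 and 3.55 CPM in normoxic A2058, and 5.84 to 17.2 CPM in the other 8 libraries, and it was lower in A2058 than in SKMEL-5 (log2 -1.22 ± 0.38, adjusted p = 0.0347) by edgeR. GNE, the rate-limiting enzyme of sialic acid synthesis, averaged 52.1 ± 14.2 CPM in A2058, 150.1 ± 68.8 CPM in A375 and 169 ± 60.7 CPM in SKMEL-5.

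Of the supply genes after GNE, 0 of 4 passed in A2058 against either line. CMAS, the highest of the supply genes per kilobase, had 37.0 and 49.7 CPM in hypoxic A2058 and 50.1 and 34.1 CPM in normoxic A2058, 45.6 and 47.8 CPM in hypoxic A375 and 43.8 and 43.8 CPM in normoxic A375, and 46.1 and 40.1 CPM in hypoxic SKMEL-5 and 65.9 and 52.4 CPM in normoxic SKMEL-5. NEU1 averaged 88.3 ± 15.8 CPM in A2058, 33.1 ± 19.98 CPM in A375 and 30.3 ± 11.5 CPM in SKMEL-5. ST6GALNAC4, which makes disialylated O-glycans, had 23.2 and 32.8 CPM in hypoxic A2058 and 33.9 and 25.05 CPM in normoxic A2058. It had 46.5 and 22.3 CPM in hypoxic A375 against 23.9 and 23.6 CPM in normoxic A375, and 38.6 and 21.5 CPM in hypoxic SKMEL-5 against 23.7 and 22.0 CPM in normoxic SKMEL-5, where the high library of each line is the one that stood apart.

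**Figure D4:**
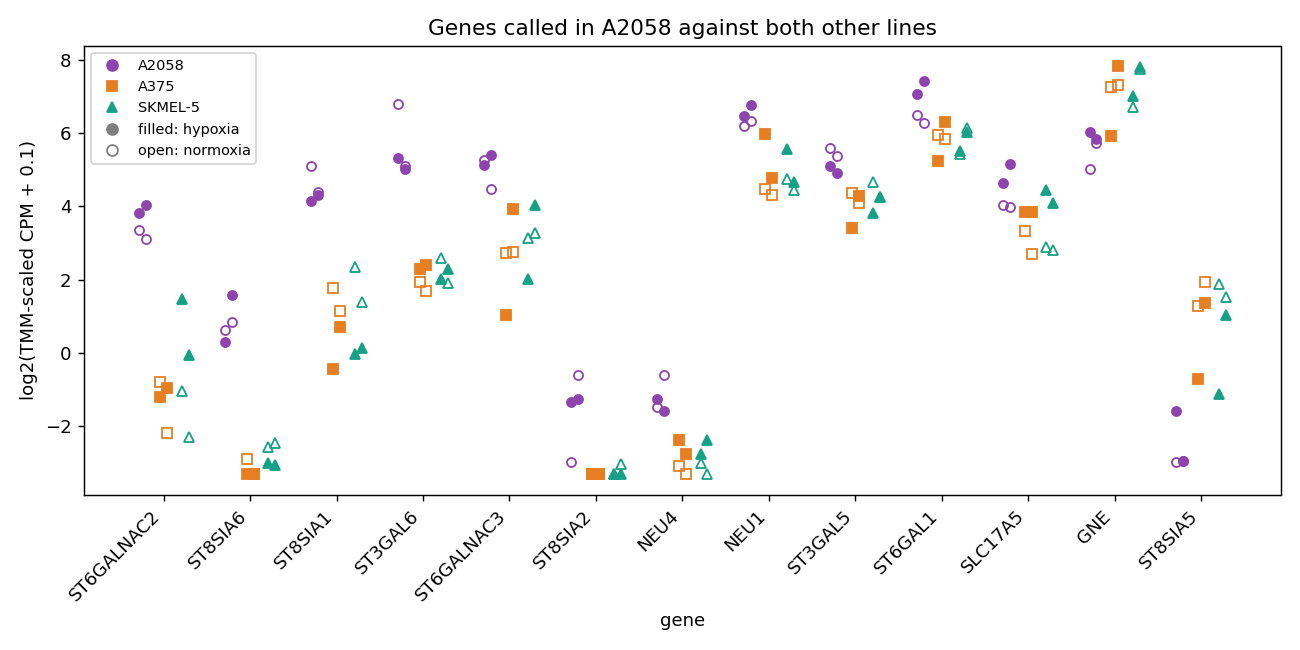
log2(TMM-scaled CPM + 0.1) in every library of the 13 genes called in A2058 against both other lines, ordered by the mean difference, with hypoxic libraries filled and normoxic ones open. ST6GALNAC2 and ST8SIA6 lie at the left with the largest gap, and GNE and ST8SIA5 at the right are lower in A2058.

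As a description of the whole set, the linkage classes were expressed as shares of the summed CPM per kilobase of the 20 sialyltransferase genes. The alpha2,3 class took 72.8 ± 1.77% in A2058 and 82.0 ± 6.05% in A375, with 83.1 ± 5.51% in SKMEL-5 (SD, n = 4 each). The alpha2,6 class to galactose took 9.69 ± 2.11% in A2058 and 6.29 ± 3.32% in A375, with 5.54 ± 2.91% in SKMEL-5. The class to N-acetylgalactosamine took 15.1 ± 1.54% in A2058, 10.4 ± 2.17% in A375 and 9.57 ± 1.83% for SKMEL-5. The alpha2,8 class took 2.36 ± 0.225%, 1.35 ± 0.669% and 1.75 ± 0.925% in the same lines, and 1.65 ± 0.223%, 0.855 ± 0.442% and 1.09 ± 0.590% with the longest transcript as the length. ST3GAL4 alone made up 48.7 to 88.2% of the sum per library, and 57.3 to 91.5% with the longest transcript as the length. The 2 libraries with the largest alpha2,3 share, 90.7% in hypoxic A375 replicate 1 and 90.4% in hypoxic SKMEL-5 replicate 1, are among those that stood apart, and the same pair had the smallest alpha2,8 share, 0.381% and 0.366%. Hypoxia minus normoxia, as a mean of the 3 lines, was 2.26 percentage points for alpha2,3, -0.04 for alpha2,6 to galactose, -1.64 for alpha2,6 to N-acetylgalactosamine and -0.57 for alpha2,8. These means join lines that differ. The alpha2,6 share to galactose was 3.58 points higher in hypoxic A2058, without overlap, but 1.59 points lower in hypoxic A375 and 2.13 points lower in hypoxic SKMEL-5, with overlap in both. The alpha2,3 share differed by -1.57 points for A2058, by 3.68 points for A375 and by 4.66 points for SKMEL-5, with overlap in each line. For alpha2,8 the difference was -0.37 points in A2058, without overlap. It was -0.49 points in A375 and -0.84 points in SKMEL-5, with overlap in both. Without the 3 libraries the 3-line means were -2.08, 2.203, -0.13 and 0.0077 points. These shares carry no test.

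**Figure D5:**
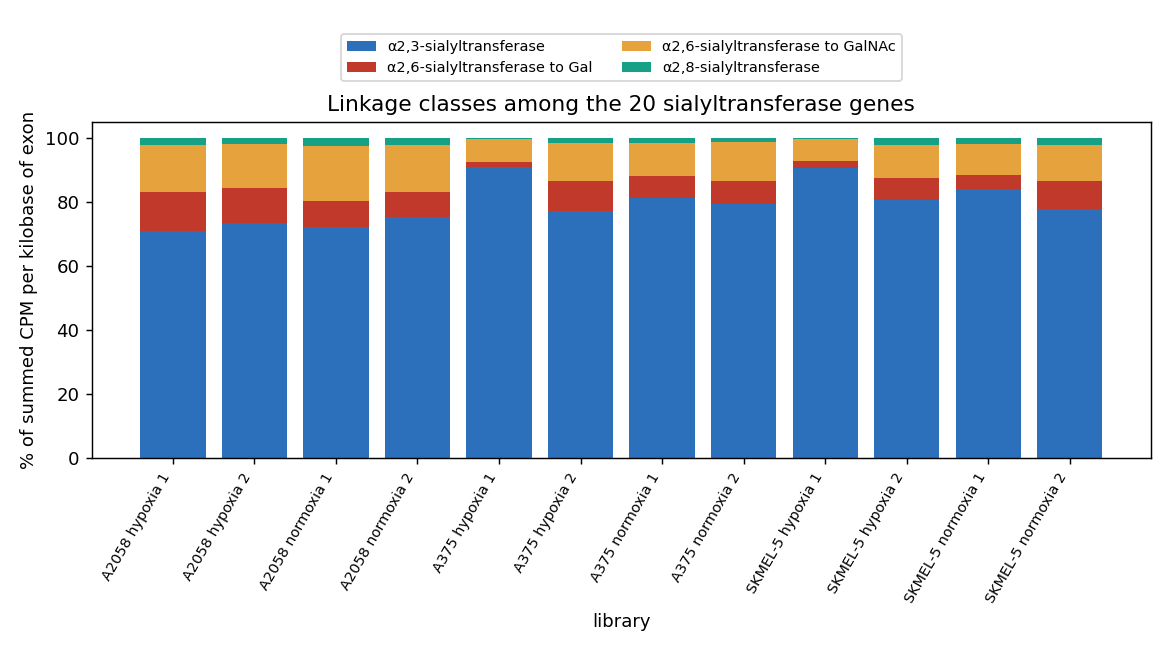
Share of each linkage class in the summed CPM per kilobase of exon of the 20 sialyltransferase genes, for each library. The alpha2,3 class takes 70.9 to 90.7% in the 12 libraries and is smallest in A2058.

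Set beside these genes, 12 companion lists of related genes and cell markers gave few calls in the 3-line mean. They were chosen with earlier results of these data known. Among the 10 hypoxia response genes, NDRG1 had a log2 difference of 4.13 ± 0.56 and ADM of 3.55 ± 0.49. All 10 had a positive estimate (median log2 2.24), and 7 were called higher, against 0.978% of all genes. The count was 0 without normoxic A375 replicate 1, without normoxic A375 replicate 2 and without normoxic SKMEL-5 replicate 2, 2 without normoxic SKMEL-5 replicate 1, 4 without hypoxic A2058 replicate 2 and 6 to 8 without each of the other 7. Over these fits the log2 difference of NDRG1 stayed between 3.76 and 4.78 and that of ADM between 2.97 and 3.83. Of the 10 sialic acid carriers, proteins that bear sialylated glycans, NCAM1 alone passed, at 1.24 ± 0.24 on the log2 scale with an adjusted p of 0.0371 by edgeR, and the median of the list was 1.15. NCAM1, the main carrier of polysialic acid, had 139 and 222 CPM in hypoxic A2058 against 60.7 and 70.0 CPM in normoxic A2058. In A375 it had 41.8 and 22.9 CPM in hypoxia against 17.2 and 12.5 CPM in normoxia, and in SKMEL-5 15.8 and 23.2 CPM in hypoxia against 10.5 and 7.37 CPM in normoxia. Without the 3 libraries its log2 difference was 1.00 and did not pass (adjusted p = 0.177, edgeR). With 1 library left out at a time its call held without hypoxic A2058 replicate 1 and without hypoxic A375 replicate 2, and was lost without each of the other 10, with adjusted p-values by edgeR of up to 0.186.

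None of the 6 ganglioside core synthesis genes passed (median 0.31; B3GALT4 at 1.44 ± 0.43, adjusted p = 0.131, edgeR, and 1.01 without the 3 libraries), nor any of the 7 lysosomal partners of ganglioside breakdown (median 0.69; HEXA, a hexosaminidase subunit, at 0.96 ± 0.23, adjusted p = 0.0740, edgeR, and 0.61 without the 3 libraries). The same held for 12 acceptor glycan synthesis genes (median 0.32; C1GALT1, which builds the O-glycan core, at 1.08 ± 0.24, adjusted p = 0.0611, edgeR, and 1.18 without the 3 libraries) and 7 UDP-GlcNAc supply genes (median 0.30; NAGK at -0.69 ± 0.26, adjusted p = 0.191, edgeR, and -0.44 without the 3 libraries). The 4 tested sialoglycan receptors had a median of -0.12, and 1 of them, CD33, had a positive estimate. The other receptors listed did not pass the filter on low counts. CD33 at 1.40 ± 0.38 came closest (adjusted p = 0.0997, edgeR), with 0.91 without the 3 libraries. DESeq2, which called 7.86% of all genes, called 4 of the 7 lysosomal partners, 4 of the 10 carriers and 2 of the 6 fibroblast markers. It called 1 each of the ganglioside core, acceptor glycan and receptor lists. With 1 library left out at a time the log2 difference of HEXA stayed between 0.73 and 1.11 in edgeR. Melanocyte and fibroblast marker lists had 0 of 8 and 0 of 6 called, with medians of 0.48 and 0.77, where MLANA and TYR could be measured in A2058 alone. The fibroblast markers summed to 61.5 to 106 CPM in hypoxic A2058 against 24.5 to 26.7 CPM in normoxic A2058. They summed to 13.6 CPM in both hypoxic A375 libraries against 13.04 to 15.5 CPM in normoxic ones, and to 16.3 to 19.4 CPM in hypoxic SKMEL-5 against 9.27 to 11.4 CPM in normoxic SKMEL-5. Endothelial markers had 0 of 4 called, and keratinocyte and blood markers 0 of the 2 tested among 5 listed in each. Over all libraries the keratinocyte markers summed to 43.3 to 144 CPM. The endothelial markers summed to 2.61 to 11.9 CPM and the blood markers to 0.550 to 15.2 CPM. Their part in the results above was not tested.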

How the data were processed

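RNA-seq counts of 12 libraries were used. Total RNA went into a NuGen Universal Plus mRNA protocol, per the labels' protocols; per the submitters' processing notes, reads went through bcl2fastq 2.20, Trim Galore 0.6.1 and STAR 2.5.0a on GRCh38. Neither the read counter nor its strand setting is given in the sources used here. The authors deposited raw counts per gene, with no normalization, for 60656 gene IDs, 23267 with no count. Totals ran from 33831569 to 54202819 counts. Columns were matched to samples by title. Positions, exon lengths and overlaps came from GENCODE 29, and promoter windows from RefSeq.

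In R 4.3.3, edgeR 4.0.16 kept genes by filterByExpr (minimum count 10, minimum total 15), leaving 19636, scaled libraries by TMM and fitted a quasi-likelihood model with 6 group means over 12 libraries (6 residual degrees of freedom). Benjamini-Hochberg adjustment ran over all tested genes, with calls at an adjusted p under 0.05. CPM are TMM-scaled. Line contrasts average both oxygen conditions. Alternatives were DESeq2 1.42.0, limma-voom 3.58.1, other filters and scalings, a replicate block, subsets of libraries and leaving out each library. Named genes were the called members, the 8 smallest p-values in the 3-line mean, the 6 largest line differences called in both A2058 contrasts and the highest member per class. ST8SIA6 and ST8SIA2 are given by counts, since fitted folds of such genes depend on the prior count. Members, lists and rule were chosen with earlier results of these data known. The code was tested on simulated counts with known changes. There the 3-line test called 14 of 100 2-fold changes and 80 of 100 4-fold ones, with 4 false calls. Most changes of 2-fold were thus missed, and a gene that did not pass may still differ.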

Additional observations from a re-analysis of the deposited data

Results flagged for a closer look

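For 2 genes the hypoxic libraries lay all above the normoxic ones in 1 line and all below them in another. The share of all genes tested that do so was not counted. Per line, 18.1 to 20.5% of all genes lay higher in hypoxia without overlap, and 14.2 to 19.7% lower. ST8SIA5 had a log2 difference, hypoxia minus normoxia, of 2.24 in A2058 and of -1.45 in SKMEL-5, where A2058 levels were at most 0.231 CPM and 3 of the 4 A2058 libraries held 1 count each. CMAS had a log2 difference of 0.093 in A375 and of -0.46 in SKMEL-5. The test of equal differences across the 3 lines gave an adjusted p by edgeR of 1.0 for ST8SIA5 and for CMAS, so neither difference between lines passed.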

How the results depend on the processing

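For the 3-line mean, the number of the 29 genes called was 1. It was 3 by DESeq2 (SLC17A5, ST6GALNAC2, ST8SIA1), 4 with no filter on low counts (with ST3GAL4 as the fourth), 0 by limma-voom, 0 without the 3 hypoxic libraries that stood apart, 0 with a replicate block, 0 with A2058 and A375 alone, 0 with A2058 and SKMEL-5 alone, and 0 to 2 when each library was left out in turn. Among all 19636 genes in the 3-line mean, limma-voom called 178, A2058 and A375 alone gave 48, and A2058 and SKMEL-5 alone gave 34. In SKMEL-5 alone 0 of the 29 were called, 3 by DESeq2 and 1 with no filter (ST6GALNAC2). There DESeq2 called 120 of all 19636 genes, and the fit with no filter called 350 of 37389. Called genes in A2058 against A375 and against SKMEL-5 numbered 14 and 14, 4 and 4 with hypoxic libraries alone, and 10 to 15 and 9 to 14 when each library was left out; 9 came without normoxic A2058 replicate 1 and without normoxic SKMEL-5 replicate 1. Without the 3 libraries the alpha2,6-to-galactose share difference moved to 2.203 points and the alpha2,8 one to 0.0077. The cause of these shifts was not tested. No value called by edgeR with the standard filter changed sign; ST3GAL4, called only with no filter, was 0.90 there on the log2 scale and -0.08 without the 3 libraries. The total of calls among all genes in the 3-line mean was 220, 1543 by DESeq2, 1855 with no filter, 91 with the block, 30 without the 3 libraries and 15 (without either normoxic A375 library) to 1120 (without hypoxic A375 replicate 2) in the leave-one-out fits. Replicate numbers were not taken as pairs: within lines, replicate 1 minus 2 in hypoxia and in normoxia correlated at -0.30 (A2058), 0.23 (A375) and 0.26 (SKMEL-5). Over all 15 pairs of groups r ran from -0.47 to 0.80, the highest between hypoxic A375 and hypoxic SKMEL-5; 10 pairs were over 0.1, and all 5 below 0 involve hypoxic A2058. With the replicate block SLC17A5 had an adjusted p of 0.102 in edgeR. Depth limits ST8SIA2, NEU4 and ST6GALNAC6, at under 1 CPM everywhere. ST6GALNAC6 also shares 2494 of its 5307 exon bases with AL157935.2 on the same strand. SLC35A1 shares 1106 of its 1994 exon bases with AL049697.1, likewise on the same strand. The split of reads between these genes is uncertain.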
